A study of Saccharomyces cerevisiae with 10 samples.

Results

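The cell wall integrity pathway was examined through 10 genes that carry its signal, chosen by name, with no rule on their values. They are the sensors WSC1 (YOR008C), WSC2 (YNL283C) and MID2 (YLR332W), the GTPase RHO1 (YPR165W), the kinases PKC1 (YBL105C), BCK1 (YJL095W), MKK1 (YOR231W), MKK2 (YPL140C) and SLT2 (YHR030C), and the transcription factor RLM1 (YPL089C). All 10 are among the 6608 features counted in rich medium and the 6190 listed for synthetic medium. All 10 passed the filter on low counts.

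In budding yeast, sensors in the plasma membrane report stress on the wall to the small GTPase Rho1, which activates protein kinase C (Pkc1). Pkc1 starts a MAP kinase cascade in which Bck1 activates the redundant pair Mkk1 and Mkk2, and these activate the MAP kinase Slt2 (also called Mpk1). Slt2 phosphorylates the transcription factor Rlm1, whose targets build and repair the wall and include SLT2 itself. Much of this control acts on the phosphorylation of the proteins, which footprint and mRNA counts do not measure.

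The cells were Saccharomyces cerevisiae of the 74D694 background, grown at 30 °C to an OD600 between 0.6 and 0.8, and cycloheximide, which stalls elongating ribosomes, was given to every culture. In YPD (rich medium), [PSI+] cells, which propagate the aggregated prion form of the termination factor Sup35, were compared with [psi-] cells, which lack it. Each strain had 2 ribosome footprint libraries and 1 mRNA library. In YNB+CSM-U (synthetic medium without uracil) with 2% glucose, [PSI+] cells overexpressing SUP35-Cter, the part of Sup35 that terminates translation, were compared with [PSI+] cells, with 2 footprint libraries each. For YNB the deposited table gives condition means, so depth and spread per library are unknown there. The sources do not say whether the [PSI+] and [psi-] cells are single isolates, nor how SUP35-Cter was expressed.

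The YPD footprint libraries held 2497170 and 3257673 reads in [PSI+] and 3461402 and 3579039 reads in [psi-], and the mRNA libraries 5494957 reads in [PSI+] and 2480012 in [psi-]. Between the runs of the 2 [PSI+] footprint libraries, chi-square over its degrees of freedom was 19.35 to 19.83, where counting noise alone gives about 1. Between the [psi-] libraries it was 1.267, and many calls rest on having both [psi-] libraries. General stress genes were a list of 20 targets of Msn2 and Msn4. They took 0.108% and 0.115% of the footprint counts in [PSI+], against 0.93% and 0.928% in [psi-]. SOD2, HXK1 and GLK1 of this list had no reads in any YPD library, as had 715 genes in all. They are also not listed in YNB, and their absence is not read as a lack of expression. All 16 genes of the list that were tested were called lower in [PSI+], where 18.9% of all genes tested were. Some of the 16, such as ALD3 and DDR2, passed the low-count filter through their [psi-] counts alone, so only a fall could be called for them. In YNB, SUP35 had an authors' mean of 20432 with SUP35-Cter against 6207 in [PSI+] (adjusted p = 0.0053 in the authors' deposited table), a sum of endogenous and overexpressed reads.

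In YPD footprints, 2 of the 10 genes changed, both lower in [PSI+]: the MAP kinase SLT2, 7.39-fold, and the MAP kinase kinase MKK1, 2.08-fold. The 3 sensors, RHO1, PKC1, BCK1, MKK2 and RLM1 did not pass the test, so 0 of the 10 were called higher. The test was the quasi-likelihood test of edgeR over 5135 genes, with a Benjamini-Hochberg adjusted p threshold of 0.05. It called 34.6% of all genes, 15.7% higher and 18.9% lower in [PSI+], so 2 of 10 lower is close to the background share. Of all calls, 45.3% were higher in [PSI+] with the TMM scaling used here, 60.5% with upper-quartile scaling and 23.3% by DESeq2. Both SLT2 and MKK1 were also the members called by DESeq2 and the members with an unadjusted p under 0.05. Values are scaled within each library, so the number of cells and the total RNA per cell are not measured.

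SLT2 (chrVIII:168890-170344, minus strand, in the sacCer3 coordinates of RefSeq) had deposited footprint counts of 339 and 801 in [PSI+], against 4480 and 4761 in [psi-]. Every deposited YPD count contains 1 added by the authors, or 2 for the [PSI+] footprint libraries, which are sums of 2 runs. Scaled to library size (CPM, counts per 1e6 counts of the library, with TMM factors), SLT2 stood at 134 and 231 in [PSI+] and at 1333 and 1376 in [psi-], so the groups were far apart. The means were 183 ± 68.3 CPM in [PSI+] and 1354 ± 29.9 CPM in [psi-] (SD, n = 2 each). The log2 difference was -2.89 ± 0.28 (SE), with an adjusted p of 0.0018 by edgeR's quasi-likelihood test. This value lay at percentile 1.85 of the log2 differences of all tested genes. It stayed between -3.32 and -2.55 in all 10 alternative settings, and past the threshold in each that kept both [PSI+] libraries. The authors' deposited table for YPD, which runs from [PSI+] to [psi-] and lists genes with an adjusted p under 0.1, gives SLT2 a log2 fold of 3.05 and an adjusted p of 9.6e-57.

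**Figure D1:**
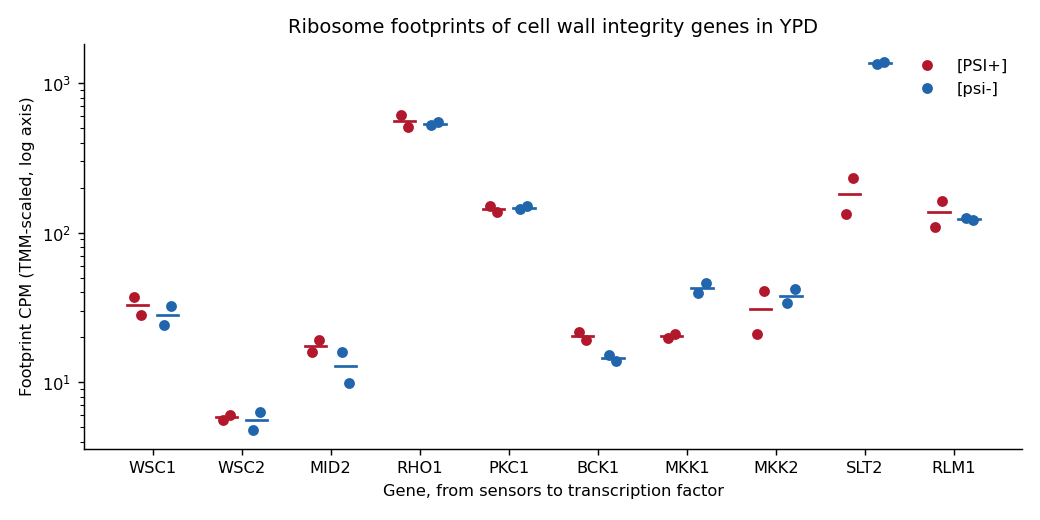
Footprint CPM (TMM-scaled, log axis) of the 10 pathway genes in YPD, with 1 point per library, [PSI+] left of [psi-] for each gene, and a line at each group mean. SLT2 stood at 134 and 231 CPM in [PSI+] and at 1333 and 1376 CPM in [psi-]. MKK1 is the other gene past the test's threshold, at 19.8 and 21.1 CPM in [PSI+] and 39.3 and 45.9 CPM in [psi-].

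MKK1 (chrXV:772601-774127, plus strand), which encodes an activator of Slt2, had counts of 50 and 73 in [PSI+], against 132 and 159 in [psi-]. Its means were 20.4 ± 0.871 CPM in [PSI+] and 42.6 ± 4.71 CPM in [psi-] (SD, n = 2 each), with no overlap between the groups. The log2 difference was -1.06 ± 0.18 (SE; edgeR quasi-likelihood test, adjusted p = 0.0097). This call rested on both [psi-] libraries: without replicate 1 the log2 difference was -1.17 with an adjusted p of 0.051, without replicate 2 it was -0.94 with 0.11, and with the pair summed it was -1.06 with 0.064. The authors' deposited table lists MKK1 at a log2 fold of 1.22 from [PSI+] to [psi-] (adjusted p = 2.2e-04), and of the 10 genes only SLT2 and MKK1 are in that table.

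MKK2 (chrXVI:287514-289034, minus strand), the paralog of MKK1, had 53 and 141 counts in [PSI+], against 114 and 145 in [psi-]. In CPM these were 21 and 40.7 in [PSI+] and 33.9 and 41.9 in [psi-], and the higher [PSI+] library lay within the [psi-] range. Its log2 difference was -0.27 ± 0.32 (adjusted p = 0.54, edgeR quasi-likelihood test), and it became 0.10 without [PSI+] replicate 1 and -0.84 without [PSI+] replicate 2. Whether MKK1 and MKK2 differ in their response was not tested. BCK1 (chrX:247255-251691, plus strand), the kinase above both, had 55 and 66 counts in [PSI+] and 51 and 48 in [psi-]. That is 21.8 and 19 CPM in [PSI+] and 15.2 and 13.9 CPM in [psi-], without overlap, with a log2 difference of 0.48 ± 0.21 and an adjusted p of 0.13 by edgeR's quasi-likelihood test. Of all genes tested, 36.4% had [PSI+] footprint CPM wholly above, and 36.4% wholly below, those of [psi-].

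PKC1 (chrII:14241-17696, minus strand), the protein kinase C that starts the cascade, had 380 and 478 counts in [PSI+], against 480 and 523 in [psi-]. Its CPM were 151 and 138 in [PSI+] and 143 and 151 in [psi-], with overlap, and the log2 difference was -0.03 ± 0.12 (adjusted p = 0.87, edgeR quasi-likelihood test). RHO1 (chrXVI:875368-875997, plus strand), the GTPase that binds Pkc1 and is also a regulatory subunit of glucan synthase, had 1540 and 1765 counts in [PSI+], against 1759 and 1891 in [psi-], which gave 611 and 509 CPM in [PSI+] and 523 and 546 CPM in [psi-]. The [PSI+] values enclosed the [psi-] values, and the log2 difference was 0.07 ± 0.14 (adjusted p = 0.75, edgeR quasi-likelihood test).

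Of the sensors, WSC1 (chrXV:341278-342414, minus strand) had 93 and 98 counts in [PSI+], against 81 and 111 in [psi-]. Its CPM of 36.9 and 28.3 in [PSI+] overlapped the 24.1 and 32.1 of [psi-], and the log2 difference was 0.20 ± 0.23 (adjusted p = 0.53, edgeR quasi-likelihood test). WSC2 (chrXIV:105184-106695, minus strand) was the most thinly covered, with 14 and 21 counts in [PSI+], against 16 and 22 in [psi-], and a log2 difference of 0.07 ± 0.30. MID2 (chrXII:790676-791806, plus strand), a sensor also needed during mating, had 40 and 66 counts in [PSI+], against 53 and 34 in [psi-]. Its CPM of 15.9 and 19 in [PSI+] lay just above the 15.8 and 9.82 of [psi-]. The log2 difference of MID2 was 0.46 ± 0.30, and neither WSC2 nor MID2 passed the test (adjusted p = 0.88 for WSC2 and 0.27 for MID2, edgeR quasi-likelihood test). MID2 overlaps the annotated YLR331C over 371 bases, 32.8% of its length, and YLR331C had 0 reads in every YPD library. No other member overlaps an annotated gene.

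RLM1 (chrXVI:379120-381150, minus strand), the MADS-box factor downstream of Slt2, had 275 and 569 counts in [PSI+], against 419 and 422 in [psi-]. Its CPM of 109 and 164 in [PSI+] enclosed the 125 and 122 of [psi-]. The log2 difference was 0.15 ± 0.21 (adjusted p = 0.59, edgeR quasi-likelihood test), and it was 0.41 without [PSI+] replicate 1 and -0.16 without [PSI+] replicate 2. The median of the 10 log2 footprint differences was 0.07, beside 0.02 over all genes tested. Together the 10 genes took 0.113% and 0.125% of the footprint counts in [PSI+], against 0.219% and 0.226% in [psi-]. SLT2 made up 11.9% and 19.6% of those counts in [PSI+] and 59.1% and 58.7% in [psi-].

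mRNA was measured in 1 library per strain, so its differences have no replicate check, and the intervals cover counting error only. Ratios are CPM from library totals, and log2 values are given relative to the median of 5390 genes with 10 or more reads, which lay at -0.43. SLT2 had 1656 mRNA counts in [PSI+], against 1447 in the smaller [psi-] library. This is a CPM ratio of 0.517 (95% counting interval 0.482 to 0.555), or 1.93-fold lower in [PSI+], and a relative log2 value of -0.52 (-0.62 to -0.42). The footprint value of SLT2, -2.89, lay outside this mRNA interval. MKK1 had 66 counts in [PSI+] and 65 in [psi-], a ratio of 0.459 (0.321 to 0.657) and a relative value of -0.69.

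In all, 8 of the 10 genes lay below the median of all genes in mRNA and 2 above it, with a median of -0.69. RHO1, with 9309 counts in [PSI+] and 3265 in [psi-], lay highest at 0.80, and MKK2, with 931 in [PSI+] and 403 in [psi-], lay at 0.49. The members more than 2-fold below the median were PKC1, with 233 counts in [PSI+] and 316 in [psi-] and a relative value of -1.16, and WSC1, with 388 in [PSI+] and 479 in [psi-] and a relative value of -1.02. Among all genes, 22.5% lay that far below and 21.7% that far above. WSC2 (42 counts in [PSI+], 48 in [psi-]) lay at -0.91 and MID2 (102 in [PSI+], 110 in [psi-]) at -0.82. RLM1, with 75 counts in [PSI+] and 73 in [psi-], lay at -0.68. BCK1, with 217 in [PSI+] and 160 in [psi-], lay at -0.28 with an interval of -0.58 to 0.03 that includes the median of all genes.

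**Figure D2:**
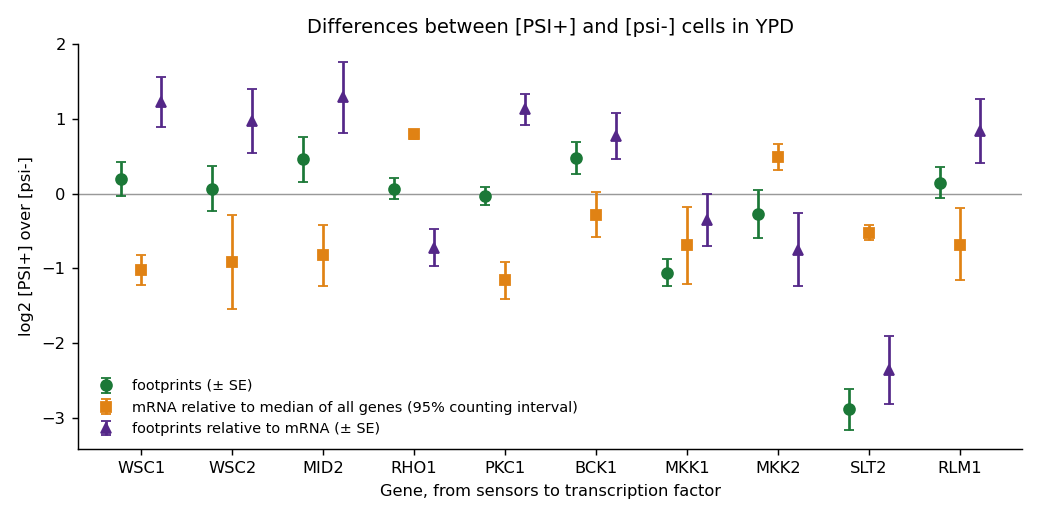
Log2 differences of [PSI+] over [psi-] in YPD for the 10 genes: footprints (± SE), mRNA relative to the median of all genes (95% counting interval) and footprints relative to mRNA (± SE). For SLT2 the footprint and relative-footprint values are -2.89 and -2.36, with mRNA at -0.52. WSC1 and PKC1 have mRNA values of -1.02 and -1.16 beside footprint values of 0.20 and -0.03.

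Translational efficiency, the footprint count of a gene relative to its mRNA count, was compared between strains as an interaction term in 1 edgeR model over the 6 YPD libraries. Its spread comes from the footprint libraries, so the error of the mRNA side is counted only as far as they vary. SLT2 was lower in [PSI+] by a log2 difference of -2.36 ± 0.46 (SE; adjusted p = 0.014). This value stayed between -2.81 and -2.04 in all 10 alternative settings, and past the threshold in each that kept both [PSI+] libraries. WSC1 was higher, at 1.23 ± 0.34 (adjusted p = 0.037), and PKC1 was higher, at 1.13 ± 0.21 (adjusted p = 0.012). Those are 2 members higher and 1 lower, where the quasi-likelihood test of edgeR called 38.4% of 5437 genes, 17.9% higher and 20.5% lower. Of all such calls, 46.7% were higher with TMM scaling, 61.4% with upper-quartile scaling and 25.5% by DESeq2.

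The WSC1 and PKC1 calls were lost by DESeq2, at log2 differences of 0.95 for WSC1 and 0.85 for PKC1, and without either [psi-] replicate or with that pair summed (adjusted p 0.058 to 0.14 for WSC1 and 0.078 to 0.093 for PKC1). DESeq2 instead called SLT2 and RHO1, both lower, with RHO1 at -1.01. In the edgeR quasi-likelihood test RHO1 stood at -0.72 ± 0.25 with an adjusted p of 0.066, and MID2 at 1.29 ± 0.47 with 0.076. WSC2 (0.98 ± 0.43), BCK1 (0.77 ± 0.31), RLM1 (0.84 ± 0.43), MKK1 (-0.35 ± 0.35) and MKK2 (-0.75 ± 0.49) did not pass it either. The median over the 10 genes was 0.80, beside 0.02 over all genes.

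Within a strain, the ratio of footprints to mRNA on the log2 scale, relative to the median of all genes, placed SLT2 at -0.65 in [PSI+] and at 1.46 in [psi-]. It is the only member on opposite sides of the median in the 2 strains. RLM1 had the highest ratio of the 10 in both, at 3.38 in [PSI+] and 2.31 in [psi-], with few mRNA counts behind it. MKK2 was lowest in [PSI+], at -2.38 against -1.85 in [psi-], and WSC1 was lowest in [psi-], at -1.14 in [PSI+] against -2.53 in [psi-]. The paralogs MKK1 and MKK2 lay on opposite sides in both strains, MKK1 at 0.79 in [PSI+] and 0.95 in [psi-]. PKC1 stood at 1.77 in [PSI+] and 0.45 in [psi-], and RHO1 at -1.61 in [PSI+] and -1.05 in [psi-].

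**Figure D3:**
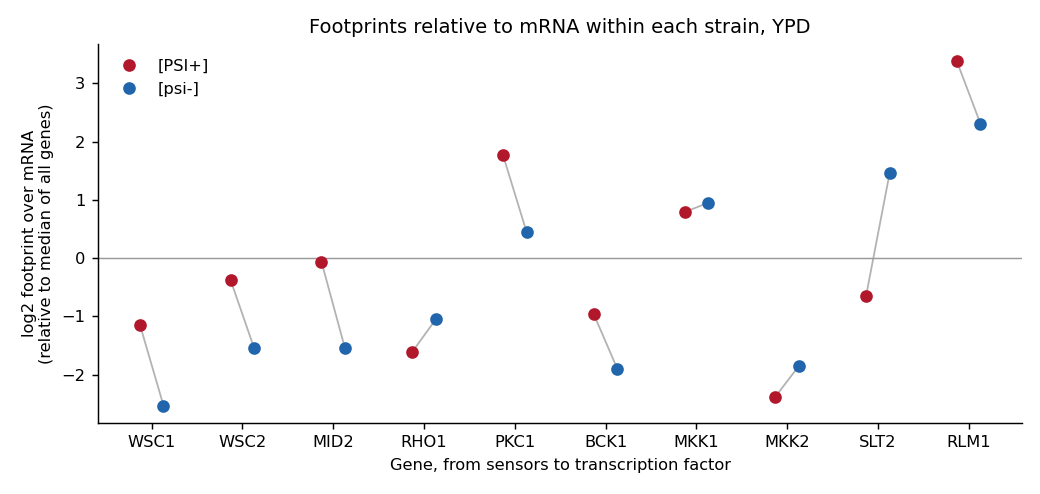
Log2 ratio of footprint to mRNA level within each strain in YPD, relative to the median of all genes (0), with 1 point per strain and [PSI+] left of [psi-]. SLT2 lies at -0.65 in [PSI+] and 1.46 in [psi-], while RLM1 is the highest gene in both, at 3.38 in [PSI+] and 2.31 in [psi-].

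Per kilobase of gene length, RHO1 led the [PSI+] footprints at 889 ± 114 CPM per kb, followed by SLT2 at 126 ± 47 and RLM1 at 67.3 ± 19.2. In [psi-], SLT2 led at 931 ± 20.6 CPM per kb, ahead of RHO1 at 849 ± 25.7, with RLM1 at 60.7 ± 0.964 (SD, n = 2 for each value). In [PSI+], PKC1 (41.8), WSC1 (28.7), MKK2 (20.3), MID2 (15.4) and MKK1 (13.4) came next, and BCK1 (4.6) and WSC2 (3.84 CPM per kb) were lowest. The library ranges of WSC1 and MKK2, and of MKK2 and MID2, overlapped in [PSI+], so those neighbours have no settled order. In [psi-], PKC1 (42.5) was followed by MKK1 (27.9), MKK2 (24.9) and WSC1 (24.7), whose neighbouring ranges overlapped, then by MID2 (11.3), WSC2 (3.68) and BCK1 (3.27 CPM per kb), of which the last pair overlapped. The footprint level of SLT2 per kb was 3.01 times that of PKC1 in [PSI+] and 21.9 times in [psi-]. In mRNA per kb, RHO1 led and SLT2 was second in both strains, with RHO1 13 times as high as SLT2 in [PSI+] and 5.21 times in [psi-].

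The wider pathway was followed through 30 further genes: other sensors, regulators of Rho1, kinases beside Pkc1, the MAP kinase paralog, phosphatases of Slt2, transcription factors and a few effectors. Of the 28 tested in YPD footprints, 6 rose and 4 fell in [PSI+], a median of 0.18 beside 0.02 over all genes, where 15.7% of all genes were called higher and 18.9% lower. The split moved with the scaling, to 3 higher and 5 lower under RLE factors, 8 higher and 3 lower under upper-quartile factors, and 1 higher and 4 lower by DESeq2. Without [psi-] replicate 1, SDP1 alone of these genes was called, and without [psi-] replicate 2 or with the pair summed, SDP1 and KDX1 were, all lower in [PSI+]. The calls of the other 8 were lost in each of these settings.

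The largest falls among these genes were those of SDP1 and KDX1. SDP1, a stress-inducible phosphatase of Slt2, had 31 and 45 counts in [PSI+], against 217 and 235 in [psi-], a log2 difference of -2.38 ± 0.16 (adjusted p = 6.6e-04, edgeR quasi-likelihood test). It stayed past the threshold in each alternative setting that kept both [PSI+] libraries. KDX1, the pseudokinase paralog of Slt2, had 5 and 9 counts in [PSI+], against 34 and 28 in [psi-], a log2 difference of -1.95 ± 0.33 (adjusted p = 0.0099), and -1.79 with an adjusted p of 0.085 without [psi-] replicate 1 (edgeR quasi-likelihood test). Without the added counts these are 10 reads in [PSI+] and 60 in [psi-], a ratio of 0.204 (95% counting interval 0.0931 to 0.401). KDX1 passed the low-count filter through its [psi-] counts alone, so only a fall could be called for it. Another phosphatase of Slt2, MSG5, went the other way, with 151 and 125 CPM in [PSI+], against 78.3 and 70.5 CPM in [psi-], a log2 difference of 0.89 ± 0.15 (adjusted p = 0.009, edgeR quasi-likelihood test). The MSG5 call was lost without [psi-] replicate 1 (0.97, adjusted p = 0.074), without replicate 2 (0.82, adjusted p = 0.12) and with the pair summed (adjusted p = 0.086), by the same edgeR test. The phosphatases PTP2 (0.24 ± 0.34) and PTP3 (0.10 ± 0.28), named here to complete the group of 4 phosphatases, did not pass the test.

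The other genes that rose included TOR2 (0.76 ± 0.23), the kinase of the TORC2 complex, SAC7 (0.74 ± 0.14), a GTPase-activating protein of Rho1, and PKH1 (0.67 ± 0.19), a kinase that phosphorylates Pkc1. BEM2, a Rho1 GTPase-activating protein, and the formin BNI1, both at 0.58, complete the 6 and are named for that reason. TOR2, BEM2 and BNI1 also lost their calls under RLE factors, without the low-count filter and by DESeq2. PKH1 lost its call without that filter and by DESeq2, and SAC7 lost its call by DESeq2. YPK2 (-0.80 ± 0.19), a kinase downstream of Pkh1 and TORC2, and SWI6 (-0.57 ± 0.17), a subunit of the Slt2-regulated factor SBF, fell. PKH2, the paralog of PKH1, stood at -0.57 ± 0.22 and did not pass. Neither did the Rho1 exchange factors ROM1 (-0.67 ± 0.38), ROM2 (0.23 ± 0.21) and TUS1 (0.12 ± 0.25), the MID2 paralog MTL1 (0.26 ± 0.33), or WSC4 (0.03 ± 0.27). WSC3 was below the filter, with 12 and 4 counts in [PSI+] and 6 and 4 in [psi-].

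In mRNA, 21 of the 30 lay below the median of all genes and 9 above, with a median of -0.45. SDP1 lay at -2.27 and KDX1 at -2.20, so for these the mRNA values were about as low as the footprint values. The efficiency of SDP1 (-0.11 ± 0.32) and KDX1 (0.26 ± 0.49) did not pass the test, and how it differs from that of SLT2 was not tested. In efficiency, 10 of the 30 were higher and 2 lower in [PSI+], where 17.9% of all genes were called higher and 20.5% lower. The median was 0.73 beside 0.02 over all genes, and DESeq2 called 4 higher and 1 lower. The sensor WSC4, 1 of the 2 lower ones, stood at -1.69 ± 0.49, on only 44 mRNA counts in [PSI+] and 8 in [psi-]. Of the alternative settings that kept both [PSI+] libraries, only the fit without the low-count filter kept the WSC4 call.

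Output of the pathway was read from 24 genes reported as targets of Rlm1 or of cell wall stress. In YPD footprints 7 rose and 4 fell in [PSI+], where 15.7% of all genes were called higher and 18.9% lower, so the falls are near the background share. The median was 0.19, beside 0.02 over all genes. The 4 largest rises were BGL2, a glucanosyltransferase of the wall, and MNN1, a mannosyltransferase, both at 1.15, then the wall proteins PIR1 at 1.06 and SED1 at 1.01. BGL2 had 159 and 192 CPM in [PSI+], against 77.1 and 80.6 CPM in [psi-], well apart (adjusted p = 0.0038, edgeR quasi-likelihood test). It was called in each alternative setting that kept both [PSI+] libraries. PIR1 had 156 and 188 CPM in [PSI+], against 80.4 and 85.2 CPM in [psi-].

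The 4 falls were PIR3, SPI1, GSC2 and SRL3. PIR3, a wall protein related to PIR1, had 5 and 3 counts in [PSI+], of which 2 in each were added by the authors, against 44 and 55 in [psi-]. Its log2 difference of -3.39 ± 0.41 (adjusted p = 0.0036, edgeR quasi-likelihood test) moved between -4.31 and -2.83 over the alternatives. Without the added counts PIR3 had 4 reads in [PSI+] and 97 in [psi-], a ratio of 0.0504 (95% counting interval 0.0135 to 0.133). GSC2, the stress-inducible glucan synthase gene, had 15 and 16 counts in [PSI+], against 34 and 55 in [psi-], a log2 difference of -1.32 ± 0.35 (adjusted p = 0.035, edgeR quasi-likelihood test). Without [psi-] replicate 1 it was -1.60 (adjusted p = 0.065), without replicate 2 it was -0.95 (adjusted p = 0.27), and with the pair summed the adjusted p was 0.11, by the same edgeR test. SPI1, a GPI-anchored wall protein, stood at -2.04 ± 0.50 on 4 and 2 counts in [PSI+] and 16 and 13 in [psi-]. Its 2 reads in [PSI+] and 27 in [psi-] without the added counts give a ratio of 0.0906 (0.0104 to 0.361). PIR3 and SPI1 passed the low-count filter through their [psi-] counts alone, so only a fall could be called for them. SRL3 stood at -1.22 ± 0.29. Without either [psi-] replicate, or with the pair summed, BGL2 and PIR3 were the 2 output genes still called, and the calls of the other 9 were lost. By mRNA, 17 of the 24 lay below the median of all genes and 7 above, with a median of -1.14. In efficiency 12 rose and 0 fell in [PSI+], where 17.9% of all genes were called higher and 20.5% lower, and the median was 0.97. At an unadjusted p under 0.05, 1 was lower in the edgeR test, and DESeq2 called 6 higher and 0 lower.

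**Figure D4:**
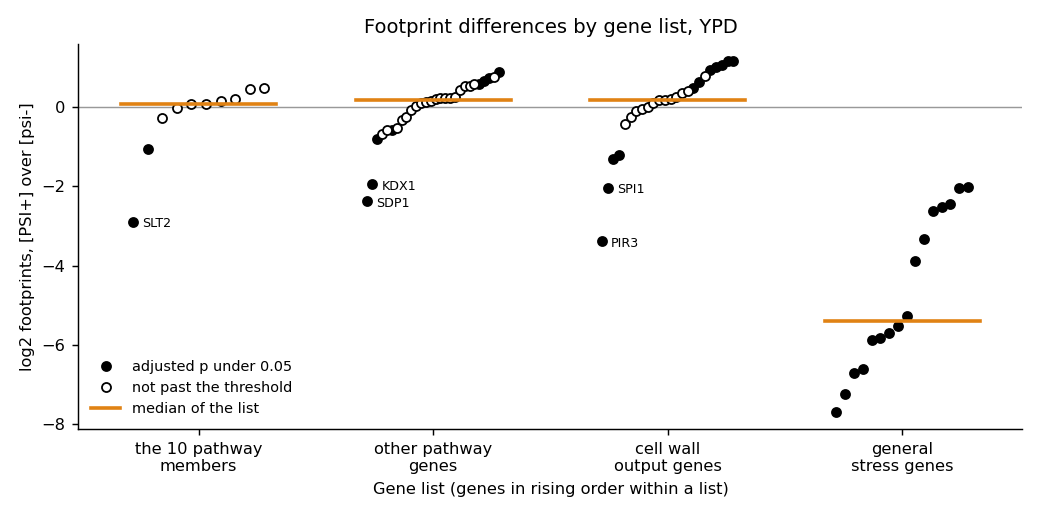
Log2 footprint difference, [PSI+] over [psi-], of each tested gene in YPD, in rising order within a list: the 10 pathway members, 28 other pathway genes, 24 output genes and 16 general stress genes. Filled points passed the adjusted p threshold of 0.05, and the line is the median of the list, at 0.07 for the members and -5.40 for the stress genes.

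The genes lower in [PSI+] stood beside the general stress list, whose 16 tested members had a median log2 footprint difference of -5.40 and whose share of the mRNA counts was 0.126% in [PSI+] and 1.44% in [psi-]. The part of this list's difference in the falls of SLT2, MKK1, SDP1, KDX1 and PIR3 was not tested. Of 4145 genes with a mean footprint count of 50 or more, the 5 nearest to SLT2 were ranked by distance over 3 log2 values, the YPD footprint, YPD mRNA and YNB footprint differences. They were RFS1, a flavodoxin-like protein gene, at a distance of 0.19, SHC1, a sporulation activator of chitin synthase, at 0.62, the desiccation protein gene SIP18 at 0.78, YGR174W-A at 0.80 and the lipid hydrolase gene LDH1 at 0.82. SIP18 is also in the stress list. The nearest pathway member was MKK1, at rank 146 and a distance of 1.86. MID2 and WSC2 were below the count minimum and were not ranked.

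In YNB, where SUP35-Cter overexpression in [PSI+] cells was compared with [PSI+] cells alone, 0 of the 10 genes passed an adjusted p of 0.05 in the authors' deposited table, which called 1.47% of 5566 features, 1.33% higher and 0.144% lower with SUP35-Cter. At an unadjusted p under 0.05, 2 of the 10 were higher, the sensors WSC2 and MID2, and 0 were lower, where 6.05% of all features were higher and 2.23% lower at that threshold. SLT2 had an authors' mean normalised count of 2996 with SUP35-Cter and 4131 in [PSI+], a log2 ratio of -0.46 (0.5 added to each mean). The authors' p for SLT2 was 0.11 and the adjusted p 0.89 in their deposited table. MKK1 had 955 with SUP35-Cter and 1075 in [PSI+], a log2 ratio of -0.17. Both means carry no spread here.

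The largest ratios of the 10 were those of the sensors. WSC2 had a mean of 601 with SUP35-Cter and 263 in [PSI+], 2.28-fold, and the authors' deposited table gives it p = 0.006 and an adjusted p of 0.22. MID2 had 701 with SUP35-Cter and 361 in [PSI+], 1.94-fold, with p = 0.04 and an adjusted p of 0.6 in the authors' deposited table. WSC1 had 3035 with SUP35-Cter and 2383 in [PSI+], a log2 ratio of 0.35. BCK1 (839 with SUP35-Cter, 689 in [PSI+]), PKC1 (2459 with SUP35-Cter, 2227 in [PSI+]) and RLM1 (2228 with SUP35-Cter, 2113 in [PSI+]) had log2 ratios of 0.28, 0.14 and 0.08. RHO1 (12330.0 with SUP35-Cter, 14001 in [PSI+]) and MKK2 (529 with SUP35-Cter, 584 in [PSI+]) had -0.18 and -0.14. The median of the 10 was 0.11, beside -0.02 over all features.

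**Figure D5:**
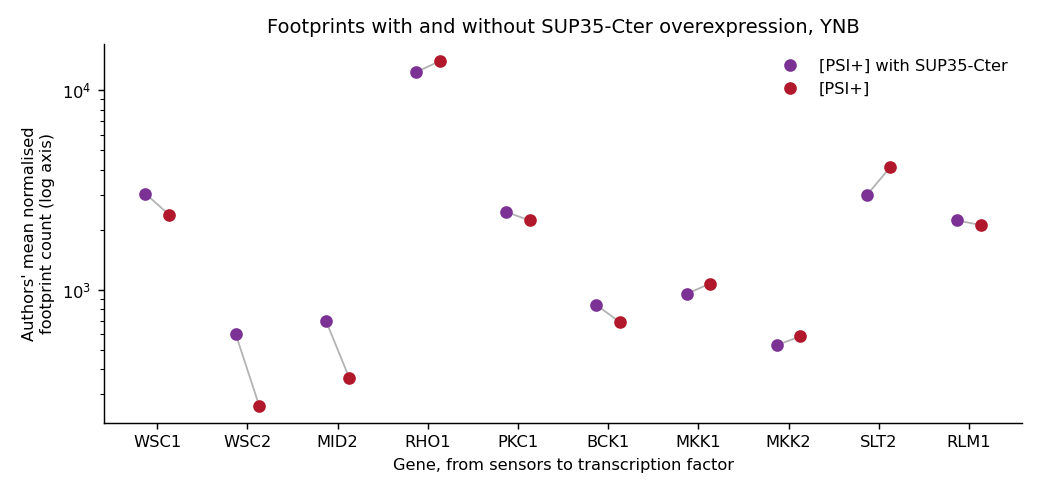
Authors' mean normalised footprint count (log axis) of the 10 genes in YNB, in [PSI+] with SUP35-Cter (left) and [PSI+] (right), joined for each gene; each point is a condition mean with no spread. WSC2 (601 with SUP35-Cter, 263 in [PSI+]) and MID2 (701 with SUP35-Cter, 361 in [PSI+]) have the widest gaps, and SLT2 stands at 2996 with SUP35-Cter and 4131 in [PSI+].

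Per kilobase, RHO1 again led in YNB, and SLT2 (2059 with SUP35-Cter, 2839 in [PSI+]) stood near WSC1 (2669 with SUP35-Cter, 2096 in [PSI+]), which ranked above it with SUP35-Cter and below it in [PSI+]. The SLT2 level per kb was 2.9 times that of PKC1 with SUP35-Cter and 4.41 times in [PSI+]. BCK1 was lowest in both conditions. Of the 30 other pathway genes and the 24 output genes, 0 passed an adjusted p of 0.05 in the authors' deposited table. At an unadjusted p under 0.05 in that table, 1 of the 30 pathway genes was lower and 3 of the 24 output genes were higher, against 2.23% of all features lower and 6.05% higher. The medians of the log2 ratios were 0.08 for the pathway list and 0.15 for the output list. GSC2 had a mean of 14233 with SUP35-Cter and 5453 in [PSI+] (log2 ratio 1.38, adjusted p = 0.065 in the authors' deposited table). KDX1 (379.9 with SUP35-Cter, 718 in [PSI+]) and SDP1 (2432 with SUP35-Cter, 3415 in [PSI+]) had log2 ratios of -0.92 and -0.49. The stress list, of which 17 genes are listed in YNB, took 1.1% of the summed means with SUP35-Cter and 1.55% in [PSI+]. The means of the list summed to 272344 with SUP35-Cter and 438727 in [PSI+]. HSP12 alone held 70542 of this sum with SUP35-Cter and 196762 in [PSI+]. Of the 17 genes, 6 had log2 ratios above 0 and 11 below, with a median of -0.23. Of these genes, 0 passed an adjusted p of 0.05 in the authors' deposited table.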

How the data were processed

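The YPD experiment was deposited by the authors as counts per gene, made with HTSeq 0.5.3p3 in intersection-nonempty mode per the deposited description. The submitters' processing notes tie this experiment to Bowtie 0.12.7 and the build sacCer2. No deposited value is below 1, so 1 had been added to each. The handling of reads with several map positions and any use of strand in counting are not given in the sources. The authors also deposited a YPD table of p-values under 0.1 after adjustment, with DESeq 1.6.1 named in the notes. As deposited by the authors, it holds a mean signal for each strain (size-factor normalised counts), and a fold (ratio) and log2 fold running from [PSI+] to [psi-]. The YNB table, for which the notes name cutadapt 1.2.1, Bowtie2, HTSeq 0.5.3p3, DESeq 1.6.1 and sacCer3, gives the authors' condition means and p-values only, so the authors' p-values stand in place of a count test.

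Each of the 8 count columns belongs to a sample, with 0 left over. The 4 [PSI+] footprint columns form 2 pairs that agree within counting noise (chi-square over its degrees of freedom 1.013 and 0.9975), and each pair was summed to 1 library. The [psi-] pair differed slightly more than counting noise (1.267) and was kept as n = 2. The deposited description calls these biological replicates.

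Counts were tested with edgeR 4.0.16 in R 4.3.3 (TMM factors, genes kept by filterByExpr at 10 counts, glmQLFit, glmQLFTest, Benjamini-Hochberg adjustment over all genes), which was checked on simulated counts. The simulation gave every library the same spread beyond counting noise, unlike the [PSI+] and [psi-] libraries here. That check therefore does not cover unequal spread. The SE of a log2 difference is its size over the square root of the F statistic. Alternatives were RLE and upper-quartile factors, no filter, 1 subtracted, DESeq2 1.42.0, each footprint library left out, and the [psi-] pair summed. mRNA ratio intervals are exact (Clopper-Pearson) at 95%. Gene names and coordinates came from RefSeq assembly R64, the sequence of sacCer3, which named 5908 of the 6608 YPD and 5677 of the 6190 YNB features. Strand was read from the systematic name. The members, lists and tests were chosen with earlier results of these data known. The lists' named genes are the 4 largest footprint calls in each direction and the paralogs and partners of members; efficiency calls had no naming rule. One efficiency result of the wider list is not reported here. No sequence was used here, and a planned promoter motif search was not run.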

Additional observations from a re-analysis of the deposited data

How the results depend on the processing

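SLT2 kept its direction in all 10 alternatives for footprints and for efficiency, and its calls in each that kept both [PSI+] libraries. Counts of calls moved most with the replicates. Leaving out 1 footprint library gave 492 to 3384 genes changed in footprints (1779 with all libraries) and 985 to 3373 in efficiency (2087), and summing the [psi-] pair gave 533 and 1016. For the members these settings gave 1 to 5 and 1 in footprints (2) and 1 to 7 and 1 in efficiency (3). For the other pathway genes they gave 1 to 18 and 2 in footprints (10) and 5 to 20 and 6 in efficiency (12). For the output genes they gave 2 to 16 and 2 in footprints (11) and 7 to 16 and 6 in efficiency (12). DESeq2 gave 5 other pathway genes in footprints and 5 in efficiency, and 7 and 6 output genes. No filter gave 6 other pathway genes in footprints, and upper-quartile scaling 5 members in efficiency. Without a [PSI+] footprint library, the spread in the fit comes from the [psi-] pair alone. Without a [psi-] footprint library, or with that pair summed, it comes from the [PSI+] pair alone. Chi-square over its degrees of freedom was 1.267 between the [psi-] libraries and 19.35 to 19.83 between runs of the 2 [PSI+] libraries. The cause of the moves was not tested. Upper-quartile scaling moved the median of all genes to 0.17 in footprints and 0.29 in efficiency, and RLE factors moved it to 0.13 in efficiency, from 0.02 with TMM.

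Of the named genes' log2 differences, those that changed sign were past the threshold neither before nor in that setting. In footprints, signs turned by DESeq2 for WSC2 (-0.11), RHO1 (-0.11), RLM1 (-0.02), WSC4 (-0.14), TUS1 (-0.05) and PTP3 (-0.07), with 1 subtracted for WSC2 (-0.02) and WSC4 (-0.03), and with upper-quartile scaling for PKC1 (0.12). Without [PSI+] replicate 1 they turned for RHO1 (-0.07), MKK2 (0.10), WSC4 (-0.02), PTP2 (-0.04) and PTP3 (-0.34), and without [PSI+] replicate 2 for PKC1 (0.05) and RLM1 (-0.16). Without [psi-] replicate 1 they turned for WSC2 (-0.13), WSC4 (-0.12) and TUS1 (-0.11), and without [psi-] replicate 2 for PKC1 (0.01) and PTP2 (-0.05). With 1 library left out, WSC2 reached 0.28, WSC4 0.20, TUS1 0.38, PTP2 0.62 and PTP3 0.48 at the other end, and PKC1 -0.09. In efficiency, KDX1 turned with 1 subtracted (-0.12) and by DESeq2 (-0.04), and SDP1 with upper-quartile scaling (0.15). With 1 [PSI+] library left out, footprint log2 differences reached 0.58 for MID2, 0.60 for BCK1, 0.21 for RHO1, -0.84 for MKK2 and 0.41 for RLM1. Beyond the members they reached -1.15 for ROM1, -0.76 for PKH2 and 0.48 for PTP3. Calls in those fits leave out the variation between the [PSI+] libraries and are not read as results. The mRNA and YNB values kept their signs in all alternatives, and RHO1 mRNA moved to 0.70 with a minimum of 100 reads. The alternatives for the output list, for the efficiency of the other lists and for their named genes were added after seeing the data. No paired analysis was possible because the [PSI+] footprint columns carry no number that ties them to a labelled replicate.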
